A study of Mus musculus with 6 samples.

Results

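The genes described here encode the INK4 family of cyclin-dependent kinase inhibitors, which are Cdkn2a, Cdkn2b, Cdkn2c and Cdkn2d, together with Cdkn1b, which encodes p27Kip1. They were chosen by name, 5 of the 55341 gene symbols counted, and all 5 were among the 16343 genes that passed the filter on low counts. The list was drawn up with the comparison of EZH2 inhibitor and vehicle already known, so the fold changes of its members are given as a description of the fit over all genes.

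The libraries came from cerebellar granule neurons (CGNs) in culture, the small glutamatergic neurons that make up most of the neurons of the cerebellum, of which 3 had received GSK-126, an inhibitor of the H3K27 methyltransferase EZH2, and 3 its vehicle, DMSO. According to the methods of the study, the cultures were started from precursors purified by Percoll density from the cerebella of CD1-IGS pups aged between the sixth and the eighth postnatal day. Both groups share exposure to the antimitotic cytosine arabinoside, given on the second day in culture against dividing glia and other non-neuronal cells. The labels gave neither a dose nor a day. The table names carry a day code, from which addition on the first day was read, the methods put the harvest on the fifth day, and the labels name the tissue as cerebellum although the titles name CGNs. By the methods, a biological replicate was a culture from pooled cerebella, so no library stands for a single animal.

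INK4 proteins bind the kinases CDK4 and CDK6 and keep them from their D-type cyclins, which leaves the retinoblastoma protein unphosphorylated and able to hold back E2F target genes. p27Kip1 belongs to the other family, Cip/Kip, which acts mainly on cyclin E and CDK2 complexes and accompanies the exit of granule neuron precursors from the cell cycle. Cdkn2a encodes 2 unrelated proteins from separate first exons, p16Ink4a and p19Arf, the second of which restrains the p53 ligase MDM2, and the Cdkn2a and Cdkn2b locus is a classic target of Polycomb repression by H3K27 methylation.

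The libraries hold RNA only, so H3K27me3 at the Cdkn2a and Cdkn2b locus is not described here. The promoters of Cdkn2a and Cdkn2b are printed because these 2 members had the largest differences between the groups. All are RefSeq sequence of GRCm38.p6 on the minus strand, written 5′ to 3′ from 250 to 51 bases before the annotated start, and capitals mark each CG dinucleotide. The first belongs to the downstream Cdkn2a start, that of p16Ink4a, at chr4:89282243-89282442. The second belongs to the upstream start, that of p19Arf, at chr4:89294670-89294869, and the Cdkn2b sequence lies at chr4:89311083-89311282.
Cdkn2a, p16Ink4a start: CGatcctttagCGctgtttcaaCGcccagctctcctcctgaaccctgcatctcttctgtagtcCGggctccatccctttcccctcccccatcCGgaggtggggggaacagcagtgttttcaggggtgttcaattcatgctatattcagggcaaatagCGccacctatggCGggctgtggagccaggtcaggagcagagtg
Cdkn2a, p19Arf start: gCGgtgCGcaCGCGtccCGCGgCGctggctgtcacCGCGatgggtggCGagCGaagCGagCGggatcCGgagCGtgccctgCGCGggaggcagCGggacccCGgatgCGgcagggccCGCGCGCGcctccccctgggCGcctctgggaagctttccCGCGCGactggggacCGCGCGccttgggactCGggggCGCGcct
Cdkn2b: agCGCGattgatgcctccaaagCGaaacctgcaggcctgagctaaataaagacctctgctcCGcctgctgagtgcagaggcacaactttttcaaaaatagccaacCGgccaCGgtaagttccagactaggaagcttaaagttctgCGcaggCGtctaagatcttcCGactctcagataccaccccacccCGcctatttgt
The p19Arf stretch holds 34 CG dinucleotides, the Cdkn2b stretch 10 and the p16Ink4a stretch 7.

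Over the whole RefSeq window of 300 bases, which runs on to 50 bases after the start, the p19Arf start held 45 CG dinucleotides, a number that 1.93% of 32851 mouse promoter windows reached. The p16Ink4a window held 12 and the Cdkn2b window 18, reached by 39.6% and 29.7% of windows, where the median window held 7. The windows of the other genes held 30 for Cdkn1b, 22 for Cdkn2d, and 33 and 8 for the 2 starts listed for Cdkn2c. An E2F motif, searched on both strands as TTTCCCGC, TTTCGCGC, TTTGCCGC and TTTGGCGC, was found once, in the p19Arf window, and in 2.26% of all windows. The E-box CACGTG was found once, in the Cdkn2c window with 8 CG, and in 7.15% of all windows.

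Cdkn2a spans chr4:89274471-89294653 on the minus strand of GRCm38, and Cdkn2b lies next to it at chr4:89306299-89311039, also on the minus strand and 11645 bases away. Of the 2 annotated Cdkn2a transcripts, which start 12461 bases apart, one shares 67.5% and the other 64.2% of its exonic bases with its partner. The deposited count is per gene, so p16Ink4a and p19Arf transcripts could not be told apart. Cdkn2c is on the same chromosome at chr4:109660876-109667189 (minus strand), Cdkn2d is at chr9:21288410-21291407 (minus strand) and Cdkn1b at chr6:134920401-134925513 (plus strand). None of the 5 shares exonic sequence with another annotated gene on either strand.

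Total counts over genes ran from 8058760 to 12047837 per library, with GSK-126 replicate 1 the deepest, and levels are given as CPM, the count of a gene scaled to a common library size with TMM factors. The granule neuron markers were all detected, with a summed level from 5176 to 7095 CPM under DMSO and from 3673 to 5812 CPM under GSK-126. The cultures also held RNA of other cells, since the summed astrocyte list ran from 2370 to 7190 CPM and the summed fibroblast list from 6811 to 8828 CPM under DMSO. In such bulk libraries, fewer cells of a type and less RNA per cell cannot be told apart.

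Cdkn2a and Cdkn2b were higher under GSK-126 in every replicate pair, Cdkn1b was lower in every pair, and Cdkn2c and Cdkn2d went both ways. Without the replicate number in the model, edgeR called no gene in the table (0%, 0 of 16343, with 981 genes at an unadjusted p under 0.05), so no member was called. With the replicate number as a block, 2 of the 5 members, Cdkn2a and Cdkn2b, were called, where 3.65% of all genes tested were. Since the members were picked with this contrast known, nothing is read from that share.

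**Figure D1:**
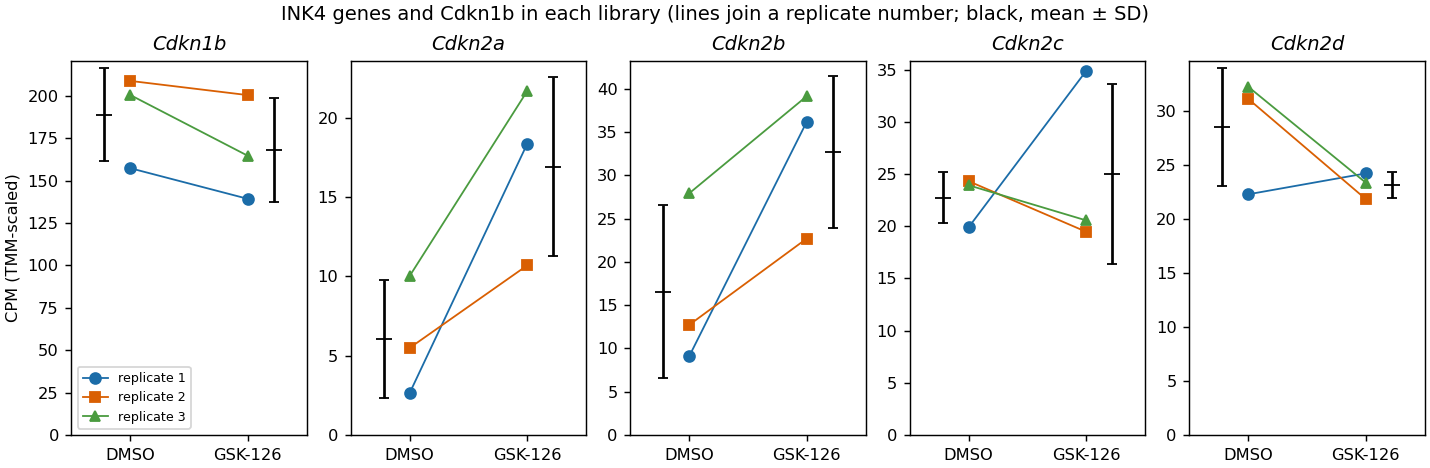
Level of each gene in CPM (TMM-scaled, vertical axes from 0) in the 3 DMSO and 3 GSK-126 libraries, with lines joining libraries of the same replicate number and black bars giving mean ± SD. Every line slopes up for Cdkn2a and Cdkn2b, every line slopes down for Cdkn1b, and the lines cross for Cdkn2c and Cdkn2d, where replicate 1 runs against the others.

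Cdkn2a was counted 23, 44 and 85 times in DMSO replicates 1, 2 and 3, and 221, 89 and 191 times in the GSK-126 replicates. These counts correspond to 2.65, 5.49 and 10.0 CPM under DMSO and to 18.4, 10.7 and 21.7 CPM under GSK-126. The groups did not overlap, although the highest DMSO library, replicate 3, came close to the lowest GSK-126 library, replicate 2. A separation of this direction, with all GSK-126 libraries above all DMSO libraries, was found for 5.43% of genes tested. The mean was 6.05 ± 3.72 CPM under DMSO and 16.9 ± 5.64 CPM under GSK-126 (SD, n = 3 each), and within pairs the ratio was 6.94-fold in replicate 1, 1.95-fold in replicate 2 and 2.17-fold in replicate 3. The largest ratio stood on the lowest count, where Poisson counting error alone is 20.9%.

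In the edgeR fit over all genes, Cdkn2a differed by 1.48 ± 0.46 (SE) on the log2 scale, with an adjusted p of 0.806. The block on replicate number gave 1.56 ± 0.32, a 2.94-fold difference, with an edgeR adjusted p of 0.0228. The vehicle libraries alone spread over 3.79-fold, with replicate 1 lowest and replicate 3 highest, as they were for Cdkn2b. Leaving out replicate 1, 2 or 3 in both groups kept the blocked call for Cdkn2a each time, with log2 fold changes of 1.05, 1.85 and 1.85.

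Cdkn2b, which encodes p15Ink4b, an inhibitor of CDK4 and CDK6 best known as a target of TGF-beta signalling, had 79, 102 and 237 counts under DMSO and 436, 189 and 345 under GSK-126. That was 9.09, 12.7 and 27.9 CPM against 36.2, 22.7 and 39.2 CPM. Here the groups overlapped, because GSK-126 replicate 2 lay below DMSO replicate 3, but each GSK-126 library lay above the DMSO library of its own number. The pair ratios were 3.99-fold, 1.79-fold and 1.40-fold, and an increase in all pairs was seen for 19.7% of genes tested. The means were 16.6 ± 10.0 and 32.7 ± 8.78 CPM (SD, n = 3 each). On the log2 scale the difference was 0.98 ± 0.40 (SE) without the block, with an edgeR adjusted p of 0.824, and 1.08 ± 0.25 with it, at 0.0376. The blocked call was lost without replicate 1 (log2 fold change 0.64, adjusted p = 0.0630) and without replicate 2 (adjusted p = 0.0748).

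The adjacent genes ran in parallel over the libraries, with a Pearson correlation of log2 CPM of 0.98 between Cdkn2a and Cdkn2b over 6 libraries, which share the 2 treatments and the replicate differences. Per kilobase of exon, Cdkn2b exceeded Cdkn2a by 2.90, 1.96 and 2.35 times in the DMSO libraries and by 1.66, 1.79 and 1.52 times in the GSK-126 libraries. The ratio was lower in each GSK-126 library than in each DMSO library, but the 2 libraries of replicate 2 lay close, at 1.96 and 1.79. In DMSO replicate 2 it rests on 44 Cdkn2a and 102 Cdkn2b counts, with Poisson counting errors of 15.1% and 9.90%. The separation may therefore not exceed counting error. The size of the ratio also depends on the length used. Per kilobase of the longest transcript, Cdkn2b averaged 11.9 CPM against 6.76 for Cdkn2a under DMSO, and 23.5 against 18.9 under GSK-126. Correlations of this kind are descriptions over few libraries and carry no test.

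Cdkn2c encodes p18Ink4c, which restrains the division of granule neuron precursors in the developing cerebellum. It had 173, 195 and 203 counts under DMSO and 420, 162 and 181 under GSK-126, or 19.9, 24.3 and 23.9 CPM against 34.9, 19.5 and 20.6 CPM. A single library, GSK-126 replicate 1, lay above all others, and the other GSK-126 libraries lay below their DMSO partners. The mean of 22.7 ± 2.44 CPM under DMSO and of 25.0 ± 8.61 CPM under GSK-126 (SD, n = 3 each) differed by 0.14 ± 0.25 (SE) on the log2 scale, with an edgeR adjusted p of 0.937. Without GSK-126 replicate 1 its sign turned, to -0.18.

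Cdkn2d encodes p19Ink4d, an INK4 protein known from postmitotic neurons, where it acts together with p27Kip1 to keep cells out of the cycle. Its counts were 194, 250 and 274 under DMSO and 292, 182 and 206 under GSK-126. In CPM this was 22.3, 31.2 and 32.3 against 24.2, 21.9 and 23.4. The GSK-126 libraries lay close together, around DMSO replicate 1 and below DMSO replicates 2 and 3, so the groups overlapped and replicate 1 alone was above its partner. The difference on the log2 scale was -0.30 ± 0.19 (SE) by edgeR, at an adjusted p of 0.841, and -0.28 ± 0.17 under the block, at 0.446, on means of 28.6 ± 5.47 and 23.2 ± 1.21 CPM (SD, n = 3 each).

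Cdkn1b was by far the most deeply counted of the genes, with 1369, 1676 and 1702 counts under DMSO and 1677, 1669 and 1451 under GSK-126, so that counting error was as low as 2.42%, in DMSO replicate 3. It stood at 157, 209 and 201 CPM against 139, 201 and 165 CPM. Each GSK-126 library was lower than its partner, as for 19.3% of genes tested, the pair of replicate 2 differed least, and the groups overlapped. By edgeR the log2 difference was -0.17 ± 0.18 (SE), at an adjusted p of 0.891, or -0.17 ± 0.10 under the block, at 0.446, on means of 189 ± 27.6 and 168 ± 30.8 CPM (SD, n = 3 each).

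Levels of different genes were compared per length, as CPM per kilobase of merged exon. Under DMSO, Cdkn1b was highest at 41.5 ± 6.07 (SD, n = 3), 2.29 times the level of Cdkn2d at 18.2 ± 3.47, and the libraries of these genes did not overlap. Below them Cdkn2b at 11.9 ± 7.19, Cdkn2c at 8.46 ± 0.91 and Cdkn2a at 5.16 ± 3.17 followed, each overlapping the gene above it. Under GSK-126 the order was Cdkn1b at 36.9 ± 6.76, Cdkn2b at 23.5 ± 6.31, Cdkn2d at 14.7 ± 0.77, Cdkn2a at 14.4 ± 4.81 and Cdkn2c at 9.30 ± 3.21. Cdkn2b overlapped neither Cdkn1b above it nor Cdkn2d below it, whereas Cdkn2a did not differ beyond its spread from Cdkn2d or from Cdkn2c. Part of this order depended on the length used: per kilobase of the longest transcript, Cdkn2d under GSK-126 ran from 15.4 to 17.0 and overlapped Cdkn2b, which ran from 16.3 to 28.2, and Cdkn2a at 18.9 ± 6.30 came before Cdkn2d at 16.3 ± 0.85.

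**Figure D2:**
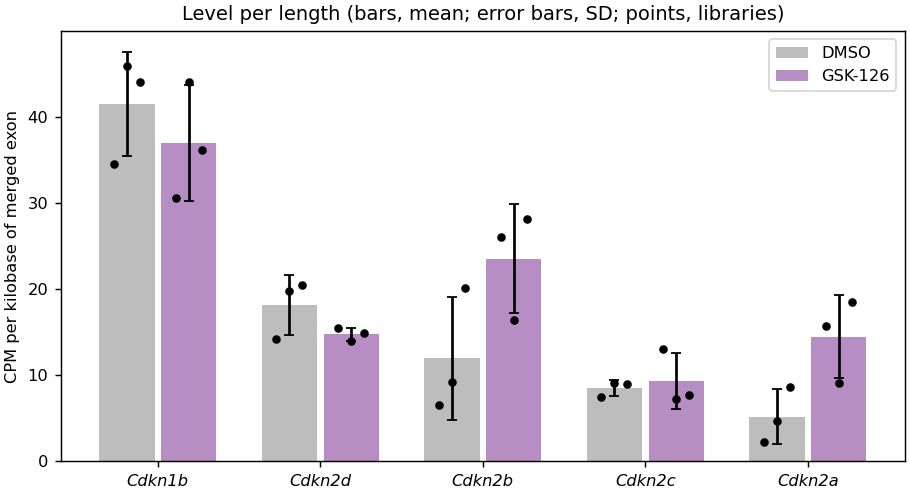
Levels in CPM per kilobase of merged exon under DMSO (grey) and GSK-126 (purple), with bars for the mean of 3 libraries, error bars for the SD and points for single libraries. Cdkn1b is highest in both groups, and Cdkn2b lies above Cdkn2d in the GSK-126 libraries on this length.

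As a share of the summed level of the 5 genes per length, Cdkn2a and Cdkn2b together made up 13.5%, 15.6% and 28.0% in the DMSO libraries and 41.4%, 28.1% and 44.3% in the GSK-126 libraries. DMSO replicate 3 and GSK-126 replicate 2 were thus nearly equal, and the other libraries were far apart. Cdkn1b made up 53.2%, 51.8% and 43.2% under DMSO and 30.4%, 48.6% and 34.3% under GSK-126, where replicate 2 again lay among the DMSO values. These shares restate the levels above and add no independent evidence.

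The Cip/Kip relatives of Cdkn1b were set beside it. Cdkn1a, which encodes p21Cip1, a target of p53, was at 99.4, 126 and 238 CPM under DMSO and at 160, 153 and 320 CPM under GSK-126. It was higher in all 3 pairs while the groups overlapped, and it was called with the block (log2 fold change 0.46 ± 0.11 (SE), edgeR adjusted p = 0.0461) but not without it (adjusted p = 0.861). The blocked call was lost on leaving out any replicate, with adjusted p from 0.0605 to 0.200, and 7.68% of its exonic bases overlap a gene on the opposite strand. Cdkn1c, which encodes p57Kip2, was at 20.2 ± 2.63 CPM under DMSO and 21.1 ± 2.43 CPM under GSK-126 (SD, n = 3 each; blocked edgeR adjusted p = 0.908). Cdkn1c has an opposite-strand overlap of 30.7%, which makes its count uncertain.

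The pathway around the inhibitors was described from 6 lists holding 74 different genes that were tested. Without the block none was called, and with it 4 were (Ccnd2, Cdkn1a, Pmaip1 and Ets2), beside 365 higher (2.23%) and 232 lower genes (1.42%) in the whole table. The median log2 fold change of all genes tested was -0.00, and 49.7% of them had a value above 0.

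Among the 8 kinases and cyclins on which the inhibitors act, 1 gene was higher with the block, none was lower, and the median log2 fold change was 0.06. This gene was Ccnd2, which encodes cyclin D2, a partner of CDK4 and CDK6 that granule neuron precursors use. It was at 186, 185 and 314 CPM under DMSO and at 434, 295 and 561 CPM under GSK-126, with each GSK-126 library above its partner. Under the block it differed by 0.91 ± 0.12 (SE) on the log2 scale, at an edgeR adjusted p of 0.00345, against an adjusted p of 0.806 without the block, and 7.87% of its exonic bases overlap opposite-strand genes. Ccnd1 (0.40, blocked adjusted p = 0.121) and Cdk6 (0.62, 0.122) did not pass, nor did Cdk4 (0.10, 0.735), Cdk2 (-0.04, 0.945), Ccnd3 (-0.04, 0.911), Ccne1 (-0.01, 0.994) or Ccne2 (-0.28, 0.428). Opposite-strand overlaps of 23.4% for Ccnd1, 19.7% for Cdk4 and 17.4% for Ccne2 make these counts uncertain.

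None of the 13 pocket protein and E2F genes, which lie downstream of the kinases, was called with or without the block, and their median log2 fold change was -0.07. Rb1, the retinoblastoma gene, stood at 90.3 CPM under DMSO and 90.0 CPM under GSK-126 on average, and its relatives Rbl1 and Rbl2 had blocked adjusted p of 0.545 and 0.870. E2f1, an activator of S phase genes, was at 34.7 ± 3.96 and 27.4 ± 1.51 CPM (SD, n = 3 each) in groups that did not overlap, as 5.44% of genes tested did in this direction, and its blocked log2 fold change of -0.33 did not pass (edgeR adjusted p = 0.260).

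On the arm that p19Arf feeds, 2 of 24 genes of the MDM2 and p53 list were higher with the block and none was lower, with a median log2 fold change of 0.30. Values above 0 numbered 21, and no test of the list was made. They were Cdkn1a, above, and Pmaip1, which encodes the proapoptotic BH3-only protein NOXA. Pmaip1 was at 7.36, 8.73 and 23.0 CPM under DMSO and at 21.1, 17.1 and 41.9 CPM under GSK-126, higher in each pair, and under the block it differed by 1.10 ± 0.19 (SE) on the log2 scale, at an edgeR adjusted p of 0.0109. Mdm2 (0.26, blocked adjusted p = 0.308), Trp53 (-0.04, 0.924) and Ccng1, a p53 target (0.30, 0.147), did not pass.

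Genes that control p27Kip1 gave no call among the 10 tested, with a median log2 fold change of -0.18. Skp2, the F-box protein that marks p27Kip1 for degradation, was too low to test, with 11, 4 and 6 counts under DMSO and 28, 3 and 8 under GSK-126. Its cofactor Cks1b had a blocked log2 fold change of 0.06 (edgeR adjusted p = 0.921). Foxo3, a transcription factor that can induce Cdkn1b, was at 288 ± 14.2 and 253 ± 3.15 CPM (SD, n = 3 each; blocked edgeR adjusted p = 0.382), and Foxo1 differed by -0.10 on the log2 scale (0.788).

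Of 18 regulators of the INK4 locus, 1 was lower with the block and none was higher, and the median log2 fold change was -0.07. The gene was Ets2, an ETS factor linked to transcription of p16Ink4a, at 51.3, 90.4 and 64.0 CPM under DMSO and 31.2, 48.1 and 45.1 CPM under GSK-126. These groups did not overlap (5.44% of genes tested lay apart in this direction), and under the block the log2 difference was -0.71 ± 0.13 (SE) at an edgeR adjusted p of 0.0124. The call was lost without replicate 2 (-0.59, adjusted p = 0.104). Transcripts of Polycomb genes themselves were not called, among them Ezh2 (0.02, blocked adjusted p = 0.967), Bmi1 (0.26, 0.346) and Cbx7 (0.04, 0.978).

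**Figure D3:**
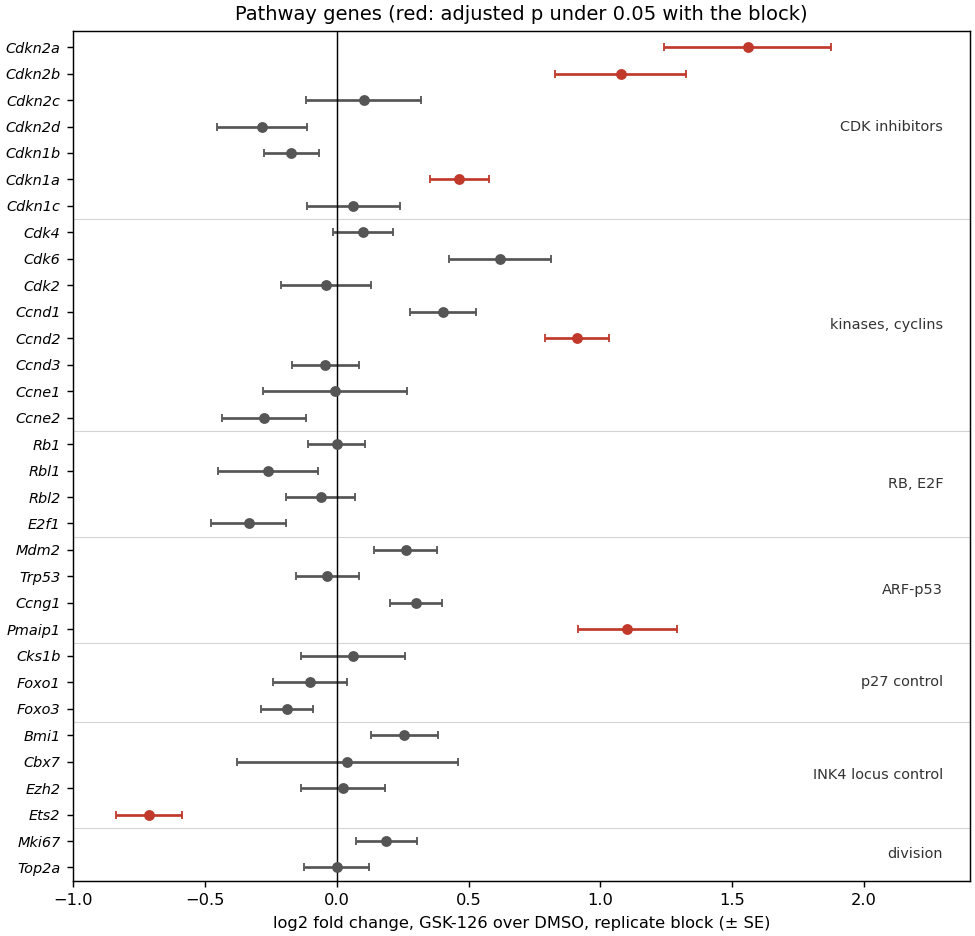
Log2 fold change (GSK-126 over DMSO, with the replicate block) of the CDK inhibitor genes and named pathway genes, with bars for the standard error and red for an edgeR adjusted p under 0.05. Cdkn2a, Pmaip1, Cdkn2b, Ccnd2 and Cdkn1a lie to the right in red, Ets2 lies to the left in red, and the 4 plotted genes of the RB and E2F list, which has 3 positive values among its 13 genes, lie at or left of 0.

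Markers of dividing cells were compared because the inhibitors act on the cell cycle. None of 20 proliferation genes was called in either model, their median log2 fold change was -0.00, and their summed level ran from 627 to 872 CPM under DMSO and from 694 to 887 CPM under GSK-126. Mki67 was at 81.2 ± 29.9 and 91.2 ± 25.5 CPM, and Top2a at 102 ± 26.7 and 100.2 ± 9.72 CPM (SD, n = 3 each). Their blocked adjusted p were 0.452 and 0.998.

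Summed markers of several other cell types, though not of astrocytes, were also higher under GSK-126, while most single markers were not called. The summed endothelial and mural list was higher in the GSK-126 library of every pair, by 1.57, 1.53 and 1.51 times, and ran from 137 to 195 CPM under DMSO and from 209 to 295 CPM under GSK-126. With the block, 2 of its 6 tested genes were higher (Flt1 and Pdgfrb), where 2.23% of all genes tested were. Pdgfrb made up much of the sum, at 106 CPM under DMSO and 164 CPM under GSK-126 on average. Of the 6, 5 had a treatment-only log2 fold change above 0 and 1 below. Kdr differed by 0.99, 0.85 and 1.17 times, and Pecam1 was lower in replicate 3 (0.86 times). The microglia list was higher by 1.91, 1.22 and 1.19 times, from 301 to 532 CPM against 366 to 747 CPM. Of 9 tested genes 2 were called with the block (C1qb and Cd68), where 2.23% of all genes tested were called higher. All 9 had a treatment-only log2 fold change above 0, but with the block Aif1 (-0.08) and Cx3cr1 (-0.02) were below 0. C1qa gave much of the sum, at 103 and 170 CPM on average. Aif1 was lower in replicates 1 and 2 (0.72 and 0.75 times), P2ry12 in replicate 2 (0.79) and Cx3cr1 in replicate 3 (0.69). The marker Trem2 was at 0 in every library, while Csf1r averaged 72.2 and 82.0 CPM.

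The fibroblast list was higher by 1.44, 1.29 and 1.11 times, from 6811 to 8828 CPM against 8853 to 9822 CPM. With the block, 1 of 6 genes was called (Col1a1), where 2.23% of all genes tested were called higher. Collagens gave most of the sum. Col1a1, Col1a2 and Col3a1 averaged 2600, 2143 and 2348 CPM under DMSO, and 3529, 2780 and 2744 CPM under GSK-126. Of the 6, 5 had a treatment-only log2 fold change above 0. Pdgfra was below, at 0.74, 1.13 and 0.77 times. Dcn differed by 1.06, 1.13 and 1.12 times, and Col3a1 by 0.997 times in replicate 3. The oligodendrocyte lineage list, which shares Pdgfra with the fibroblast list, was higher by 1.25, 1.15 and 1.04 times, from 430 to 654 CPM against 494 to 781 CPM, with 1 of 8 called (Cspg4). The astrocyte list differed by 1.04, 1.04 and 0.88 times, from 2370 to 7190 CPM against 2473 to 7439 CPM, with none of 8 called. The granule neuron list was lower in each pair, at 0.71, 0.82 and 0.77 times. With the block, 6 of its 12 genes were lower (Neurod1, Rbfox3, Etv1, Cbln1, Cbln3 and Gabra6), where 1.42% of all genes tested were. Of the 12, 9 had a treatment-only log2 fold change below 0 and 3 above. Barhl1 (1.10, 1.86 and 1.10 times) and Tubb3 (1.27, 1.56 and 1.065 times) were higher in every pair. Pax6 differed by 0.97, 1.06 and 1.06 times.

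In replicates 2 and 3, some single markers had pair ratios as large as those of Cdkn2a or Cdkn2b. Flt1, an endothelial receptor of VEGF, was higher by 2.03, 2.75 and 2.81 times in replicates 1, 2 and 3, above Cdkn2a in replicates 2 and 3 and above Cdkn2b in the same pairs. Cspg4 (1.98-fold) and Rgs5 (2.09-fold) exceeded Cdkn2a in replicate 2, and Tek (2.84-fold, on 20 and 59 counts) did so in replicate 3. None of these markers reached Cdkn2a (6.94-fold) or Cdkn2b (3.99-fold) in replicate 1. Others on the lists were lower in replicate 3, among them Pecam1 (0.86-fold), Cx3cr1 (0.69-fold) and Pdgfra (0.77-fold). The part of other cell types in the Cdkn2a and Cdkn2b values was not tested.

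**Figure D4:**
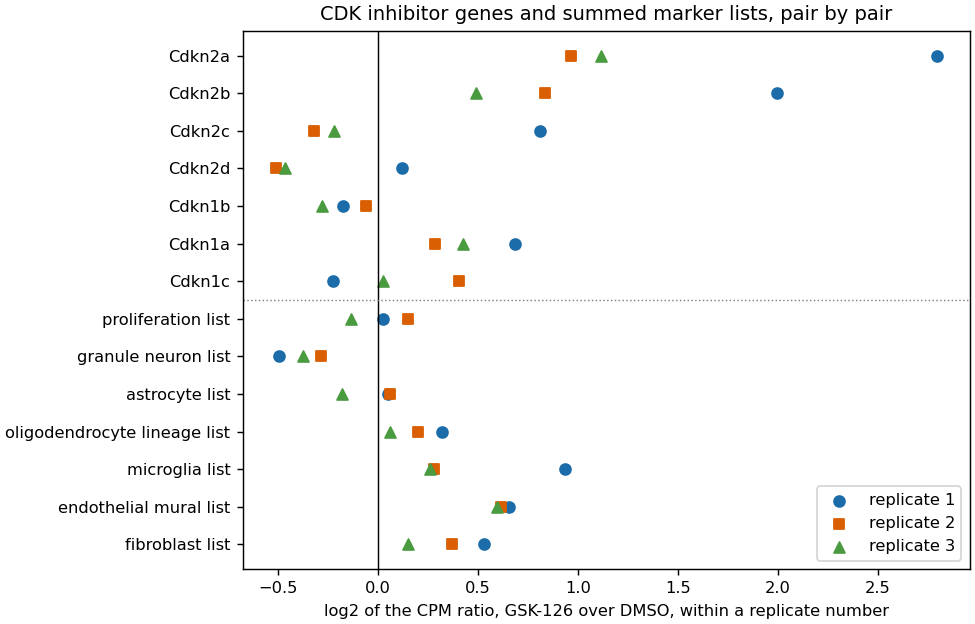
Log2 of the CPM ratio, GSK-126 over DMSO, within each replicate number for 7 CDK inhibitor genes (above the dotted line) and for the summed CPM of 7 marker lists (below it). Cdkn2a lies farthest right in replicate 1, at 6.94-fold before taking the log, and the 3 ratios of the endothelial and mural list lie close together right of 0.

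Genes whose log2 CPM followed each member most closely over the 6 libraries were picked by Pearson correlation among 16300 genes. For Cdkn2a these were Smtn (0.995) and Col5a1 (0.995), which encode smoothelin of smooth muscle and a chain of type V collagen, and 2810430I11Rik (0.989). For Cdkn2b they were Krt19, a keratin (0.997), Col5a1 again (0.991) and Gm9869 (0.991). Cdkn2c ran closest to Saraf (0.990), Ginm1 (0.990) and Ttc30a1 (0.987), and Cdkn2d to Gm44709 (0.995), Dync1i1, a dynein intermediate chain (0.980), and L3mbtl2 (0.976). The nearest to Cdkn1b were Sms, spermine synthase (0.999), Samd14 (0.993) and Efnb2, the ligand ephrin-B2 (0.991). These are the best of many matches over 6 points that share treatments and replicates, and they are descriptions.

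The protein-coding genes that flank the members were not called. Mtap, the neighbour of Cdkn2a on the side away from Cdkn2b, 93.4 kb off, was at 25.2, 23.6 and 29.2 CPM under DMSO and at 29.3, 29.4 and 34.1 CPM under GSK-126, higher in all 3 pairs in groups that barely missed overlapping, with a log2 fold change of 0.25 (blocked edgeR adjusted p = 0.417). Dmrta1, on the far side of Cdkn2b at 368 kb, was too low to test. Beside the other members, Faf1 next to Cdkn2c (-0.19, blocked adjusted p = 0.485), Kri1 next to Cdkn2d (0.12, 0.770), and Gpr19 and Apold1 on the sides of Cdkn1b (0.01, 0.983, and 0.43, 0.751) did not pass. 4930522H14Rik, the other neighbour of Cdkn2c, had no counts, and Ap1m2, the other neighbour of Cdkn2d, was too low to test.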

How the data were processed

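RNA of CGN cultures was sequenced as 6 libraries, and the authors deposited raw counts, 1 table of whole numbers per library, neither normalized nor pooled. Per the submitters' processing notes and the methods, poly(A)-selected paired reads were trimmed (Trimmomatic 0.38), aligned (STAR 2.7.2b) to mm10 and counted over exons. The strand setting of the count is not given in the sources used here, so shares of exons that overlap opposite-strand genes are printed for some of the genes named. Summary rows without a gene were dropped. Reads over no annotated exon made up 44.8% to 46.8% and reads in genes 39.1% to 41.6% of a library. All symbols matched GENCODE M21 (GRCm38), the source of coordinates and exon lengths.

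Groups and replicate numbers came from the titles and the agent label. Counts were fitted with edgeR 4.0.16 (R 4.3.3) by the quasi-likelihood test on treatment, with TMM factors, filterByExpr and Benjamini-Hochberg adjustment over all 16343 genes, at 0.05. Log2 CPM used a prior count of 2. The replicate number as a block was an alternative. The numbers pair the libraries: deviations from group means correlated by 0.35, 0.50 and 0.52 between libraries of the same number and by -0.41 to -0.01 between others, and the methods define a replicate by pooled litters. The labels do not say that libraries came from separate cultures. Without the block, p-values therefore measure the spread between these samples, and with it the spread of the differences within these pairs. Each library differed from the others beyond counting noise (chi-square per degree of freedom at least 10.7). A floor of 3 counts equals 0.249 to 0.374 CPM, and it covers counting error only.

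Members and lists were chosen with earlier results of these data known. Named genes were the members, pathway genes fixed by name, list genes called in either model, the 3 closest genes by correlation (mean CPM of at least 1) and flanking protein-coding genes. DESeq2 1.42.0, other scalings, no filter and leaving out libraries were alternatives.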

Additional observations from a re-analysis of the deposited data

How the results depend on the processing

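The number of genes called was 0 in the edgeR fit on treatment alone. It was 597 with the replicate block, 59 with DESeq2, 674 with DESeq2 and the block, and 85 without the filter on low counts, and 0 with the other scalings and without any single library. With the block it ran from 178 (without replicate 2) through 359 (without replicate 3) to 704 (without replicate 1) on leaving out a replicate number. Of the pathway genes, 4 were called with the block, 5 with DESeq2 and the block, 1 without the filter, and from 2 to 6 with the block on leaving out a replicate number. Cdkn2a, not called in the fit on treatment alone, was called with the block (log2 fold change 1.56), with DESeq2 and the block (1.59), without the filter (1.49), and with the block on leaving out each replicate number (1.05 to 1.85). Cdkn2b was called with the block (1.08), with DESeq2 and the block (1.09) and with the block without replicate 3 (1.42), while its blocked value ran down to 0.64. Cdkn2c turned negative on leaving out GSK-126 replicate 1 (-0.18) or, under the block, replicate 1 of both groups (-0.27). It reached 0.29 on leaving out GSK-126 replicate 2 and, under the block, 0.32 on leaving out replicate 2 of both groups. Per length of the longest transcript, Cdkn2d under GSK-126 stood at 16.3 instead of 14.7 CPM per kilobase, below Cdkn2a and overlapping Cdkn2b. The block changed no other member call. Over 15 other settings Cdkn2a (1.05 to 2.07), Cdkn2b (0.64 to 1.60), Cdkn2d (-0.49 to -0.16) and Cdkn1b (-0.31 to -0.05) kept their direction, and Cdkn2c kept it in 13. The cause of these shifts was not tested. Leaving out 1 library leaves an arm of 2. Precision is limited by the 3 libraries per group and, for Cdkn2a, by counts as low as 23.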
